A study of Mus musculus with 6 samples.

Results

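Transcripts of 44 genes of transforming growth factor beta (TGF-beta) and bone morphogenetic protein (BMP) signalling were followed in Renca tumors grown at 2 sites. The genes were taken by name: ligands, receptors, Smad proteins, extracellular inhibitors and latent TGF-beta binding proteins. Of these, 43 were measured among 19938 genes, each on 1 transcript cluster of the array, and Gdf15, a stress-induced ligand, was not analysed here. Renca cells are a transplantable BALB/c renal carcinoma line. Cells were injected into the outer cortex of the kidney or under the skin of BALB/c mice, with no other treatment named, and tumors were frozen 12 days later. Each group held 3 tumors, intrakidney or subcutaneous and numbered 1 to 3, with 1 Mouse Gene 1.0 ST array for the RNA of each. The 6 tumors came from 6 different mice, so the replicates are animals. Age and sex of the mice are not given in the labels, and a whole tumor holds tumor cells, host stroma and any host tissue excised with it.

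TGF-beta family ligands are secreted dimers that bring type I and type II receptor kinases together on the cell surface. TGF-beta and activin receptors phosphorylate Smad2 and Smad3, BMP receptors phosphorylate Smad1 and Smad5, and each set joins Smad4 to act on genes in the nucleus. TGF-beta is stored in the matrix as a latent complex held by binding proteins, whereas BMPs are kept in check by secreted inhibitors that bind them directly. In tumors the TGF-beta branch is known for its part in the fibroblast matrix and in immune suppression, and BMPs are known for their part in kidney epithelium and vessels.

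Values are log2 expression values, so a difference of 1 is 2-fold, and all differences are intrakidney minus subcutaneous. Differences were tested with limma across all 19938 genes, and "rose" and "fell" are used of genes with an adjusted p under 0.05. The median value of an array lay between 7.08 and 7.11. Of 10 genes fixed as markers of renal carcinoma epithelium, 7 had a mean above the 40th percentile of all genes, among them the keratins Krt8 and Krt18, the renal factor Pax8 and Vim, while Krt19, Epcam and Havcr1 lay under it. Genes of the proximal tubule, a segment of normal kidney, had list means of 6.36, 6.82 and 7.19 in intrakidney tumors 1, 2 and 3, beside a subcutaneous range of 6.40 to 6.54, so that intrakidney tumors 2 and 3 stood apart. The defining transporter gene Slc34a1 measured 6.14, 7.41 and 7.77, beside a subcutaneous range of 6.35 to 6.77. Of 21 measured genes of the list, 19 lay higher and 2 lower in intrakidney tumors, and 13 had a mean under the 40th percentile. Gatm, 1 of the 2, measured 10.83, 10.38 and 10.26, beside a subcutaneous range of 10.66 to 10.68. The mean of all genes was 7.51, 7.57 and 7.55 in intrakidney tumors 1, 2 and 3, so it too was lowest in tumor 1. In such bulk samples fewer cells of a type and less RNA per cell cannot be told apart.

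Among the 43 genes, 1 rose and 2 fell in intrakidney tumors. Mgp, an inhibitor of BMPs and of calcification, rose, while Grem1, an inhibitor of BMPs, and Ltbp1, which ties latent TGF-beta to the matrix, fell. Over all genes 0.231% passed, 0.13% higher and 0.1% lower, against 6.98% of these 43. The genes and lists were chosen with earlier results of these data known. Shares set beside those of all genes, here and below, are therefore descriptions and not tests. The ligands of the TGF-beta branch, all receptors and all Smads stayed short of the threshold. The median difference of the 43 genes was -0.0031, beside -0.0058 for all genes, and 20 of them lay higher and 23 lower. The median size of a difference, whatever its sign, was 0.10 among the 43 genes and 0.08 among all genes. Arrays of the 2 groups did not overlap for 12 of the 43 genes (27.9%), a state seen in 14.9% of all genes, and at an unadjusted p under 0.05 there were 9 (20.9%), beside 8.43% of all genes. Of the 12, 3 were higher and 9 lower in intrakidney tumors, where the shares over all genes were 8.41% and 6.53%.

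**Figure D1:**
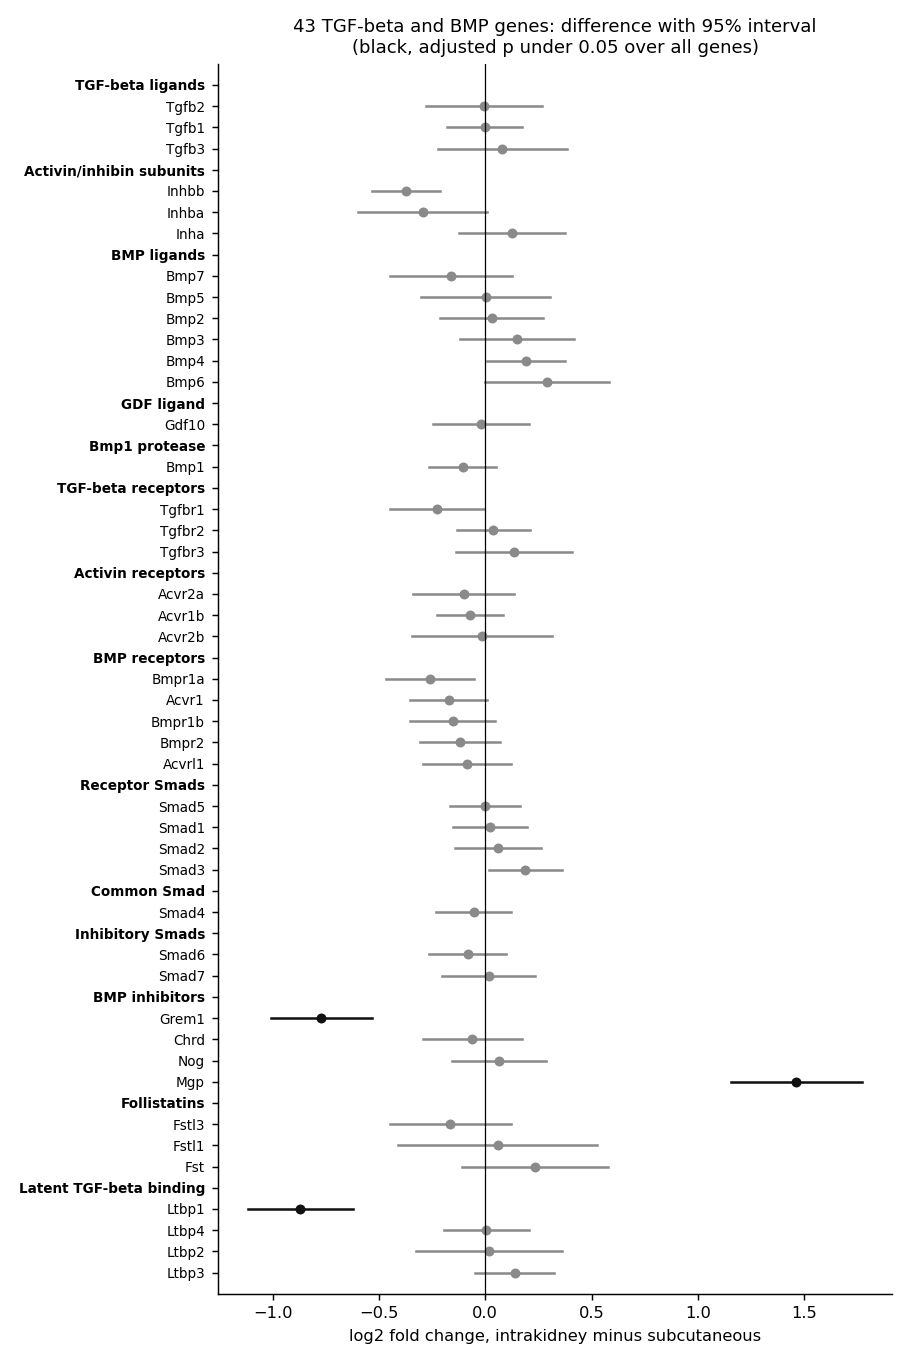
Difference in log2 value (intrakidney minus subcutaneous, horizontal axis) of the 43 genes, grouped by role; points are limma estimates and bars 95% intervals, not adjusted for the number of genes. Mgp stands alone on the right at 1.46, Ltbp1 and Grem1 on the left at -0.87 and -0.77, and the other 40 genes lie between -0.37 and 0.29.

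Mgp (transcript cluster 10548879) encodes matrix Gla protein, which binds BMPs and holds back calcification in vessel walls and cartilage. It measured 8.23, 8.49 and 8.69 in intrakidney tumors 1, 2 and 3 and 7.17, 6.87 and 6.98 in subcutaneous tumors 1, 2 and 3. All 3 intrakidney tumors lay above all 3 subcutaneous tumors, with a gap wider than the range within either group. The group means were 8.47 ± 0.23 and 7.01 ± 0.15 (SD, n = 3 per group), and Mgp rose 2.76-fold, by 1.46 ± 0.13 on the log2 scale (SE, 95% interval 1.15 to 1.77, limma adjusted p = 0.0117). The call held without each intrakidney tumor in turn (adjusted p from 0.0111 to 0.0404) and was lost without subcutaneous tumor 1, 2 or 3 (adjusted p = 0.0680, 0.0880 and 0.0772), where the difference was 1.54, 1.39 and 1.45. Without intrakidney tumors 2 and 3, the tumors with more tubule transcripts, the difference was 1.22, a value from 1 intrakidney array, so that its adjusted p of 0.05002 rests on the spread of the subcutaneous tumors alone. With the proximal tubule mean as a covariate the difference was 1.31 (adjusted p = 0.0270). Of all 19938 genes, 21, 31 and 33 passed without intrakidney tumors 1, 2 and 3, and only 2, 3 and 4 without subcutaneous tumors 1, 2 and 3. Over all 18 other settings the adjusted p of Mgp ran from 0.0010 to 0.0929.

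Several marker lists lay higher in intrakidney tumors together with Mgp. The list mean of endothelial genes was 8.39 to 8.40 in intrakidney and 8.08 to 8.22 in subcutaneous tumors, with 10 of 12 genes higher, and that of adipocyte genes was 7.57 to 7.68 and 6.78 to 6.92, with 9 of 10 higher. Mesothelial genes had list means of 6.36 to 6.67 and 6.10 to 6.30, with 7 of 8 higher. Genes of smooth muscle and pericytes, which are known to make Mgp in vessel walls, had list means of 8.18 to 8.31 and 8.12 to 8.20, which overlap, with 5 of 9 higher. Of that list Acta2, Tagln and Myh11, at differences of 0.37, 0.39 and 0.07, were each higher in all 3 intrakidney tumors than in any subcutaneous tumor. The other genes of the list overlapped between the groups. Notch3, Cnn1 and Des differed by 0.12, 0.01 and -0.02, and Pdgfrb, Cspg4 and Rgs5 by -0.06, -0.09 and -0.31. Macrophage genes had list means of 10.36 to 10.54 and 10.22 to 10.28, with 7 of 10 higher. The part of these 5 lists in the Mgp result was not tested.

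Grem1 (transcript cluster 10485948) encodes gremlin, a secreted protein that binds BMP ligands and keeps them from their receptors. It measured 6.57, 6.81 and 6.59 in intrakidney tumors 1, 2 and 3 and 7.29, 7.56 and 7.43 in subcutaneous tumors 1, 2 and 3. The groups did not overlap, and the ranges within them were similar. The means were 6.66 ± 0.14 and 7.43 ± 0.13 (SD, n = 3 per group), and Grem1 fell by 0.77 ± 0.10 on the log2 scale, 1.71-fold (SE, 95% interval -1.01 to -0.53, limma adjusted p = 0.0448). The call was close to the threshold and was lost without any 1 of the 6 arrays: without intrakidney tumors 1, 2 and 3 the adjusted p was 0.101, 0.05004 (just past the threshold) and 0.163, and without subcutaneous tumors 1, 2 and 3 it was 0.127, 0.229 and 0.150. The difference then stayed between -0.85 and -0.71, and over all 18 other settings the adjusted p ran from 0.0045 to 0.229. Over all 6 arrays Grem1 had a mean at percentile 43.9 of all genes. Its intrakidney mean of 6.66 lay below both group means of Tgfb2 (6.84 and 6.85), a gene at percentile 40.4. Grem1 was therefore dim in intrakidney tumors, and it lay above the 40th percentile through its subcutaneous values. Mgp and Grem1, both BMP inhibitors, thus moved in opposite directions between the sites.

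The other BMP inhibitors of the set did not pass. Nog, which encodes noggin, differed by 0.06, and Chrd, which encodes chordin, by -0.06 on the log2 scale, with 95% intervals of -0.16 to 0.29 and -0.29 to 0.17. Bmp1 is not a BMP ligand in spite of its name but a secreted protease that cleaves chordin and procollagens. It measured 10.34, 10.43 and 10.42 in intrakidney and 10.51, 10.53 and 10.47 in subcutaneous tumors. Its groups did not overlap, but the difference of -0.11 did not pass (limma adjusted p = 0.757).

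Ltbp1 (transcript cluster 10446928) encodes a large matrix protein that is secreted with latent TGF-beta and anchors it on fibrils. It measured 8.21, 8.49 and 8.30 in intrakidney tumors 1, 2 and 3 and 9.08, 9.17 and 9.36 in subcutaneous tumors 1, 2 and 3. Every intrakidney tumor lay at least 0.59 below every subcutaneous tumor. The means were 8.33 ± 0.14 and 9.20 ± 0.14 (SD, n = 3 per group), and Ltbp1 fell by 0.87 ± 0.11 on the log2 scale, 1.83-fold (SE, 95% interval -1.11 to -0.62, limma adjusted p = 0.0311). The call held without intrakidney tumor 2 (adjusted p = 0.0428). It was lost without intrakidney tumors 1 and 3 (adjusted p = 0.0711 and 0.111) and without subcutaneous tumors 1, 2 and 3 (0.123, 0.179 and 0.101), each left out alone, with differences between -0.95 and -0.79; over all 18 other settings the adjusted p ran from 0.0032 to 0.179.

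**Figure D2:**
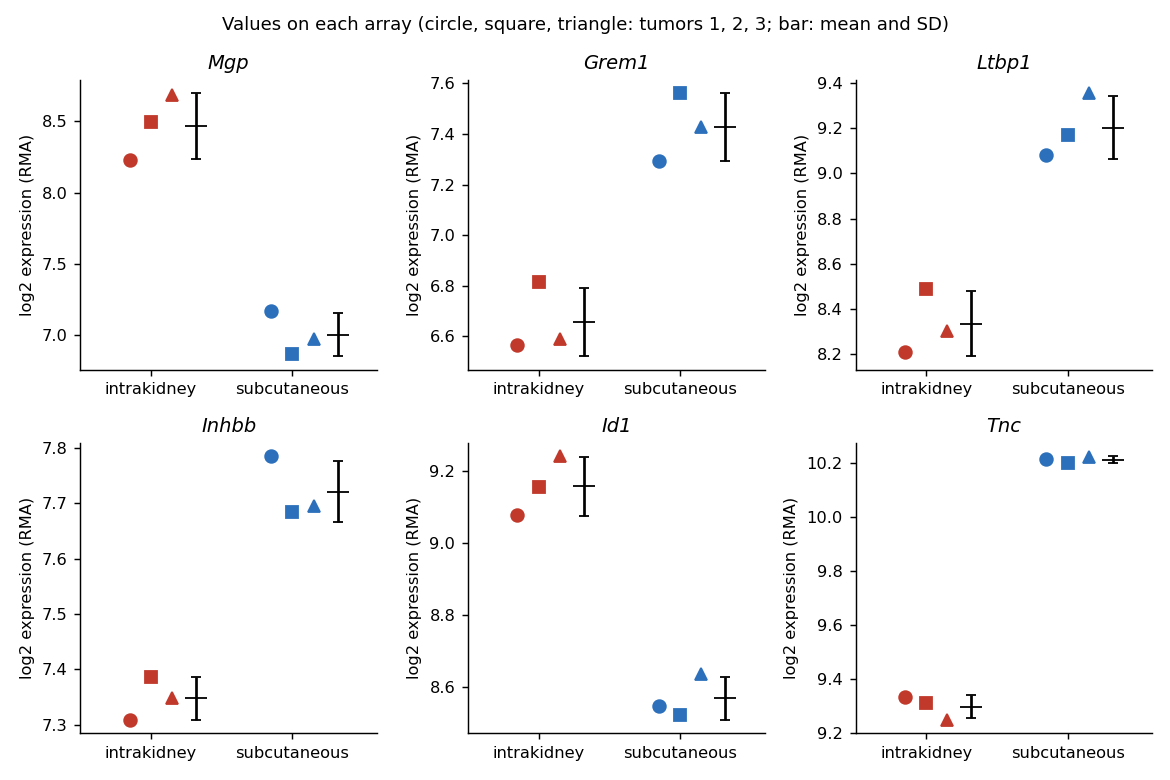
Log2 expression values (vertical axis, a separate scale for each gene) of Mgp, Grem1, Ltbp1, Inhbb, Id1 and Tnc on each of the 6 arrays, with the group mean and SD beside the points. Mgp and Id1 are higher and Grem1, Ltbp1, Inhbb and Tnc lower in all 3 intrakidney tumors than in any subcutaneous tumor.

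The fibroblast list, which holds the main collagens and stromal markers, had means of 9.09, 8.92 and 9.63 in intrakidney tumors 1, 2 and 3, beside a subcutaneous range of 9.43 to 9.56, with 6 of 10 genes lower. The genes of this list did not move as one. In intrakidney tumor 3 Dcn measured 10.55 and Mfap5 8.93, above all subcutaneous tumors, whereas Col1a1 measured 11.78 (subcutaneous 12.03 to 12.19), Col1a2 11.57 (11.75 to 11.94), Lum 8.23 (8.68 to 8.81) and Thy1 8.18 (8.30 to 8.44), below all of them. These 4 genes were lower in all 3 intrakidney tumors than in any subcutaneous tumor, like Grem1 and Ltbp1. Pdpn of the same list was higher in all 3 than in any subcutaneous tumor, with a difference of 0.25. T cell genes had list means of 6.68 to 6.91 and 7.03 to 7.18, with 10 of 10 lower. The part of the fibroblast and T cell lists in the results for Grem1 and Ltbp1 was not tested.

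The other genes named for latent TGF-beta binding did not pass. Ltbp3, which also carries latent TGF-beta, measured 9.12, 9.33 and 9.23 in intrakidney and 9.04, 9.10 and 9.13 in subcutaneous tumors. Intrakidney tumor 1 lay just below subcutaneous tumor 3, so the groups overlapped. The difference was 0.14 (95% interval -0.05 to 0.32, limma adjusted p = 0.719). Ltbp4 and Ltbp2, the latter a microfibril protein that does not bind latent TGF-beta, differed by 0.0050 and 0.02. Their 95% intervals, -0.20 to 0.21 and -0.33 to 0.36, do not reach the Ltbp1 interval, although the difference between these genes was not tested.

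The sequences before the starts of both genes that fell are shown with the short motifs known to be bound by Smad proteins. Windows of 300 bases, from 250 before to 50 after the annotated start, were taken from RefSeq (GRCm38.p6). Capitals mark the Smad-binding letters CAGAC on either strand, so that the reverse complement GTCTG is capitalised too, and the palindrome GGCGCC; these motifs do not overlap in the windows shown. RefSeq lists a single start window for Grem1 and a pair for Ltbp1, and the array value of Ltbp1 does not tell its starts apart.
Grem1, chr2:113758599-113758898, minus strand: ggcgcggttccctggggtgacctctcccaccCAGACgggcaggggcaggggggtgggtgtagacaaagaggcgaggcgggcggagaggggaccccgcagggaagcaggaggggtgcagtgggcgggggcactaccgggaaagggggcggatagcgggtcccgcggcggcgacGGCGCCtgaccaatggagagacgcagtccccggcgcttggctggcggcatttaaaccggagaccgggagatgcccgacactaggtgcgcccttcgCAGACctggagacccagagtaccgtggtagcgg
Ltbp1, upstream start, chr17:75005279-75005578, plus strand: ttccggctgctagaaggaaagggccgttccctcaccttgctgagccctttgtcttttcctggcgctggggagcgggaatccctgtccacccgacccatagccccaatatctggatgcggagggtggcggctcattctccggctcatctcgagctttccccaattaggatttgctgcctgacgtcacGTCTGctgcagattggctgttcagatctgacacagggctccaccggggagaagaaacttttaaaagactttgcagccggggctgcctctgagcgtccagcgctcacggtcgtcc
Ltbp1, downstream start, chr17:75178531-75178830, plus strand: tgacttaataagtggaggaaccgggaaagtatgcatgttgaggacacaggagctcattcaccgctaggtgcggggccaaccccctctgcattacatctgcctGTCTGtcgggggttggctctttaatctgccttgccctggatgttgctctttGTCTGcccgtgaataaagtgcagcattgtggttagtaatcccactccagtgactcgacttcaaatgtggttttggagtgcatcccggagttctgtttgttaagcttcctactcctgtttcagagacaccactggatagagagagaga

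The Grem1 window held CAGAC, counted on both strands, at 2 places and the palindrome at 1. The upstream window of Ltbp1 held the former at 1 place and the downstream window at 2, with the palindrome in neither. These letters are common: 49.6% of all 32851 promoter windows and 21 of 40 windows of 31 of the 44 genes (52.5%) held CAGAC on either strand. The palindrome GGCGCC stood in 11.9% of all windows and in 11 of the 40 (27.5%). The longer palindrome GTCTAGAC stood in 0.213% of all windows and in 1 of the 40, that of Smad6. A match is a description of the letters and not a bound site, and Mgp, among other genes, had no window in the table.

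Among the ligand genes of the set, Inhbb showed the largest difference. Inhbb, the beta B subunit shared by activin B and inhibin B, measured 7.31, 7.39 and 7.35 in intrakidney and 7.78, 7.68 and 7.69 in subcutaneous tumors. The groups did not overlap, and they spanned 0.08 and 0.10. The difference of -0.37 ± 0.07 (SE, 95% interval -0.53 to -0.21) did not pass over all genes (limma adjusted p = 0.125) and had the lowest adjusted p of the 40 genes that did not pass. It passed in 2 of 18 other settings, with dim genes left out (adjusted p = 0.0423) and with array weights (0.0203). More genes of any kind passed in these settings, 0.844% and 3.13% of the genes tested, beside 0.231% as deposited. Over all 18 other settings the adjusted p of Inhbb ran from 0.0203 to 0.520. Inhba, the beta A subunit of activin A, measured 8.43, 8.43 and 8.88 in intrakidney and 8.88, 8.95 and 8.79 in subcutaneous tumors. Intrakidney tumor 3 lay within the subcutaneous range and the other two below it, and the difference of -0.29 did not pass (limma adjusted p = 0.611). Inha, the alpha subunit that makes inhibin, differed by 0.13 (95% interval -0.12 to 0.38).

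Of the 3 TGF-beta ligand genes 0 passed, and the arrays of both groups overlapped for each. Tgfb1, the main isoform of immune cells and stroma, measured 10.08, 10.21 and 10.005 in intrakidney and 10.09, 10.12 and 10.10 in subcutaneous tumors. The subcutaneous values lay inside the intrakidney range, and the 95% interval of the difference was -0.18 to 0.17. Tgfb3 measured 8.78, 8.86 and 8.55 in intrakidney and 8.52, 8.53 and 8.90 in subcutaneous tumors, and Tgfb2 spanned 6.74 to 6.997 and 6.66 to 7.04. Their 95% intervals were -0.22 to 0.38 and -0.28 to 0.27.

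Of the 6 BMP ligand genes, 5 lay higher in intrakidney tumors and 0 passed over all genes. Bmp4, a ligand of mesenchyme and vessels, measured 6.84, 6.71 and 6.66 in intrakidney and 6.53, 6.49 and 6.62 in subcutaneous tumors. The groups stood 0.03 apart, and the difference was 0.19 ± 0.08 (SE, limma adjusted p = 0.582). Bmp6, which in the liver drives the iron hormone hepcidin, measured 7.504, 7.85 and 7.94 in intrakidney and 7.44, 7.38 and 7.60 in subcutaneous tumors. Intrakidney tumors 2 and 3 were above and intrakidney tumor 1 within the subcutaneous range. The difference of 0.29 ± 0.12 (SE, limma adjusted p = 0.591) passed only with array weights among the 18 other settings (0.46, adjusted p = 0.0379, in a range up to 0.999). With array weights 3.13% of all genes passed, beside 0.231% as deposited. Without intrakidney tumors 2 and 3, whose tubule genes were high, the Bmp6 difference was 0.03, a value from 1 intrakidney array. The part of tubule tissue in the Bmp6 values was not tested. Bmp7, which maintains kidney epithelium, was the member that lay lower, by 0.16, and Bmp2, Bmp3 and Bmp5 differed by 0.0014 to 0.15. Bmp2, Bmp3, Bmp4, Bmp5 and Bmp7 were among the 9 genes of the set with a mean under the 40th percentile of all genes, while 34 of the 43 passed that filter. Gdf10, a ligand close to Bmp3, measured 6.90, 7.12 and 7.22 in intrakidney and 7.06, 7.16 and 7.09 in subcutaneous tumors, a difference of -0.02.

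Of 11 receptor genes 0 passed in either direction in limma. Bmpr1a and Tgfbr1, both lower, had an unadjusted limma p under 0.05 (0.0193 and 0.0447), beside 3.71% of all genes that were lower at that p. The difference was below 0 for 9 of the 11, beside 52% of all genes, with a median of -0.10. Of the 9, Acvr2b lay at -0.02 and turned higher under quantile normalization. Of the 11, 5 had groups that did not overlap, all lower (45.5%, beside 6.53% of all genes that were lower without overlap). Among these 5, Bmpr1b was dim, with a mean at percentile 13.3 of all genes, and its groups stood only 0.008 apart. All 5 genes in the list of BMP receptors lay lower, under quantile normalization and median centring too, while Acvrl1 turned higher with array weights. Bmpr1a, a type I receptor for BMP2 and BMP4, measured 10.45, 10.33 and 10.39 in intrakidney and 10.76, 10.69 and 10.501 in subcutaneous tumors. The groups stood 0.05 apart, with a difference of -0.26 ± 0.09 (SE, 95% interval -0.46 to -0.06, limma adjusted p = 0.454). Acvr1, a type I receptor shared by BMPs and activins, measured 8.86, 8.72 and 8.86 in intrakidney and 9.06, 8.98 and 8.92 in subcutaneous tumors, a difference of -0.17 (limma adjusted p = 0.619). Bmpr1b, Bmpr2 and Acvrl1, the last a receptor of endothelium, differed by -0.15, -0.12 and -0.09, while the endothelial list lay higher.

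Tgfbr1, the type I receptor kinase for TGF-beta, measured 9.63, 9.39 and 9.64 in intrakidney and 9.89, 9.72 and 9.73 in subcutaneous tumors. Intrakidney tumor 2 was the lowest, and the groups did not overlap. The difference was -0.23 ± 0.09 (SE, 95% interval -0.45 to -0.01, limma adjusted p = 0.582). Tgfbr2, its type II partner, differed by 0.04 (95% interval -0.13 to 0.21). Tgfbr3, the coreceptor betaglycan, measured 7.12, 7.29 and 7.58 in intrakidney and 7.22, 7.20 and 7.15 in subcutaneous tumors. Intrakidney tumor 1 lay below and tumors 2 and 3 above the subcutaneous tumors, as with the proximal tubule list. The difference of 0.13 was -0.08 without tumors 2 and 3, a value from 1 intrakidney array. The part of tubule tissue in the Tgfbr3 values was not tested. Of the activin receptors, Acvr1b, a type I receptor, measured 8.12, 8.13 and 8.08 in intrakidney and 8.23, 8.18 and 8.14 in subcutaneous tumors. These groups did not overlap but stood less than 0.01 apart, and the difference was -0.07. Acvr2a, a type II receptor, measured 8.79, 8.74 and 8.74 in intrakidney and 9.04, 8.88 and 8.67 in subcutaneous tumors, a difference of -0.10, and Acvr2b differed by -0.02.

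**Figure D3:**
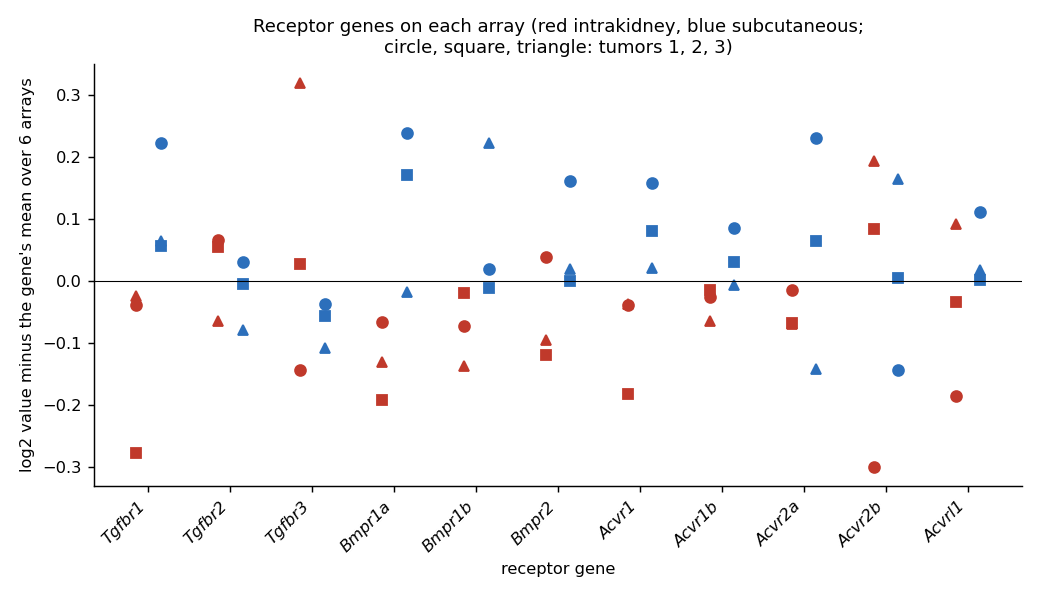
Log2 value of each of the 11 receptor genes on each array minus that gene's mean over the 6 arrays (vertical axis), by gene (horizontal axis). The intrakidney points lie below all subcutaneous points for Tgfbr1, Bmpr1a, Bmpr1b, Acvr1 and Acvr1b, with differences between -0.07 and -0.26.

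Of the 7 Smad genes, which carry the signal to the nucleus, 0 passed, with differences between -0.08 and 0.19. Smad3, the mediator of TGF-beta and activin signals at DNA, measured 8.82, 8.92 and 8.92 in intrakidney and 8.63, 8.69 and 8.77 in subcutaneous tumors. The groups stood 0.05 apart, and the difference of 0.19 ± 0.07 (SE, 95% interval 0.02 to 0.36) did not pass (limma adjusted p = 0.547). Smad2 measured 9.18, 9.03 and 9.05 in intrakidney and 9.09, 9.10 and 8.89 in subcutaneous tumors, and Smad1 and Smad5, which serve BMP receptors, differed by 0.02 and -0.0021. Smad4, the partner of both branches, measured 10.44, 10.39 and 10.38 in intrakidney and 10.54, 10.47 and 10.36 in subcutaneous tumors. Smad6 and Smad7 are inhibitory Smads whose genes are induced by the pathway and feed back on it. Smad6 measured 7.92, 8.001 and 7.998 in intrakidney and 8.16, 7.96 and 8.04 in subcutaneous tumors, and Smad7 measured 8.49, 8.38 and 8.65 in intrakidney and 8.60, 8.47 and 8.40 in subcutaneous tumors. Both overlapped between the groups, with 95% intervals of -0.26 to 0.10 and -0.20 to 0.24.

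The follistatin group, whose members bind activins or share the follistatin fold, overlapped between the sites. Fst, the main activin-binding protein, measured 6.54, 6.73 and 6.88 in intrakidney and 6.20, 6.52 and 6.73 in subcutaneous tumors, a difference of 0.23 (95% interval -0.11 to 0.58). Fstl3, a secreted relative that binds activins, measured 9.15, 9.42 and 9.60 in intrakidney and 9.53, 9.67 and 9.45 in subcutaneous tumors, a difference of -0.16. Fstl1, a secreted glycoprotein of stroma, spanned 8.88 to 9.71 in intrakidney and 8.99 to 9.27 in subcutaneous tumors. Its SD of 0.43 was the largest of the set in intrakidney tumors, and it was highest in intrakidney tumor 3, where the fibroblast list was highest too.

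The precision of the comparison bounds how far the array values of the genes that did not pass could have differed. For 39 of these 40 genes the 95% interval lay within a 1.5-fold change in either direction, and for Inhba it reached -0.60. These intervals hold gene by gene and are not adjusted for the number of genes. The array processing compresses changes of dim genes, and 9 genes of the set had a mean under the 40th percentile of all genes. A p that misses the threshold does not show that such genes were the same at both sites. Intrakidney tumors varied more than subcutaneous tumors: the SD was larger in the former for 26 of the 43 genes (60.5%, beside 59.4% of all genes), with a median SD of 0.13 and 0.10.

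Genes known to respond to the pathway were followed alongside, in lists that hold none of the 44 genes. Of 10 measured BMP target genes, 7 lay higher in intrakidney tumors, and 1 rose and 0 fell, where 0.13% and 0.1% of all genes did. Id1, a helix-loop-helix inhibitor of differentiation and a direct BMP target, measured 9.08, 9.15 and 9.24 in intrakidney and 8.55, 8.52 and 8.63 in subcutaneous tumors. The groups did not overlap, and Id1 rose 1.505-fold, by 0.59 ± 0.08 on the log2 scale (SE, limma adjusted p = 0.0403). The call was lost without any 1 of the 6 arrays (adjusted p from 0.0635 to 0.262, differences from 0.55 to 0.63) and after quantile normalization (adjusted p = 0.0623); over all 18 other settings the adjusted p ran from 0.0032 to 0.262. Id3 differed by 0.42 (limma adjusted p = 0.260) with groups that did not overlap, and Id2 by 0.28 (limma adjusted p = 0.683). Endothelial cells are known to express Id1 and Id3, and the endothelial list was higher as given above; its part in these values was not tested.

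Of 19 measured TGF-beta target genes, 12 lay lower and 7 higher, with a median difference of -0.15, beside 52% of all genes that lay lower. Of them 3 fell and 0 rose, where 0.1% and 0.13% of all genes did. The 3 were Thbs2, Postn and Tnc, matrix glycoproteins made by activated fibroblasts, which fell by 1.75, 1.66 and 0.92 on the log2 scale (limma adjusted p = 0.0228, 0.0460 and 0.00637). Tnc measured 9.25 to 9.33 in intrakidney and 10.20 to 10.22 in subcutaneous tumors. Without 1 array the adjusted p of Tnc ran from 0.0111 to 0.0732, that of Thbs2 from 0.0062 to 0.127 and that of Postn from 0.0062 to 0.253, and Tnc was lost without subcutaneous tumor 1, 2 or 3 (adjusted p = 0.0623, 0.0732 and 0.0508). Thbs2 was lost without each subcutaneous tumor and without intrakidney tumor 1, and Postn without each array other than intrakidney tumor 3. Fibroblast genes moved with these targets only in part. Of the 10 genes of that list 6 lay lower, among them Col1a1 at -0.94 and Lum at -1.07. The 4 that lay higher were Dcn at 0.46, Pdpn at 0.25, Mfap5 at 0.21 and Fap at 0.06. The fibroblast list mean was lower in intrakidney tumors 1 and 2. Col1a1, Col1a2 and Col3a1 stand in both the target and the fibroblast list, as Acta2 and Tagln do in the target and the smooth muscle list, and the part of those cells was not tested. Not all targets went this way. Fn1, the fibronectin gene, differed by 0.98 (limma adjusted p = 0.0953), and Acta2, the actin of smooth muscle and myofibroblasts, by 0.37 (adjusted p = 0.140), both higher in all 3 intrakidney tumors than in any subcutaneous tumor.

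**Figure D4:**
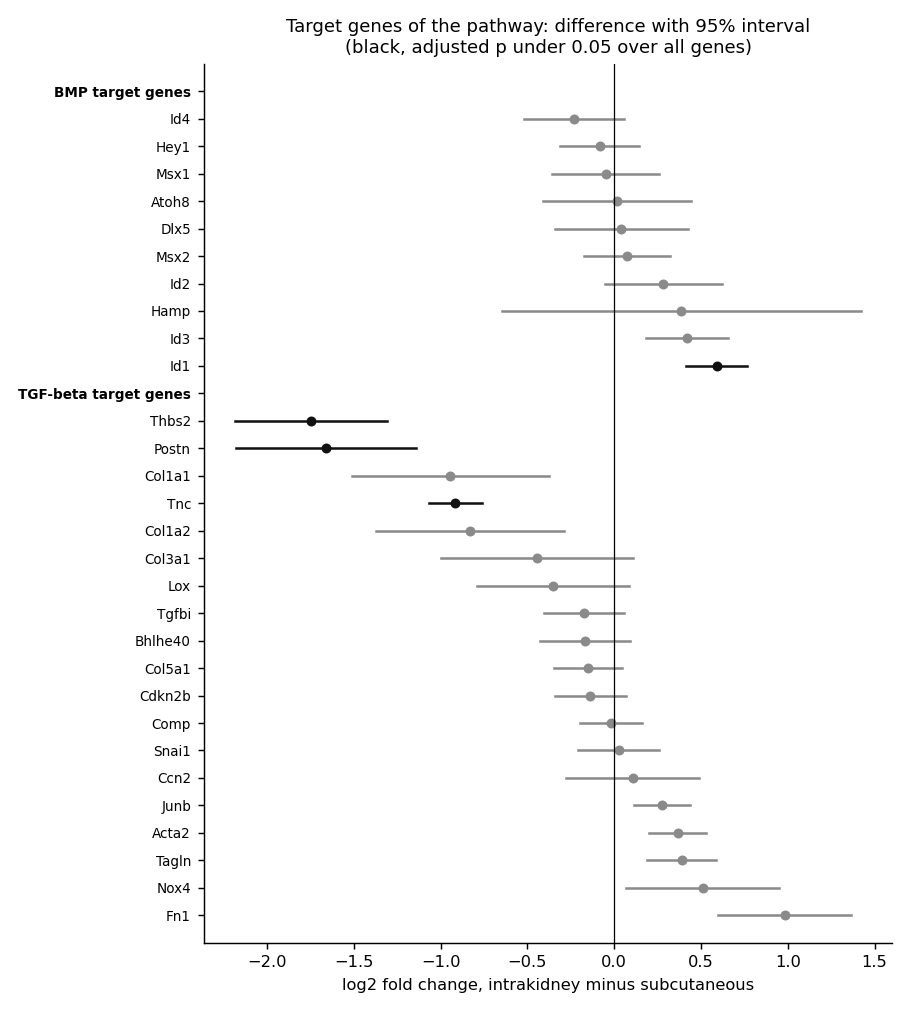
Difference in log2 value (intrakidney minus subcutaneous, horizontal axis) of 10 BMP target genes and 19 TGF-beta target genes, with 95% intervals; black marks an adjusted p under 0.05. Id1 at 0.59 is the BMP target past the threshold, and Thbs2, Postn and Tnc, from -1.75 to -0.92, are the TGF-beta targets.

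Elsewhere in the pathway, 0 of 61 further genes passed in either direction: 18 ligands, 8 receptors and coreceptors, 11 extracellular inhibitors, 11 genes of latent TGF-beta activation and 13 intracellular regulators, of which 5 were higher and 5 lower at an unadjusted p under 0.05 in limma (shares over all genes 4.72% and 3.71%). Pmepa1, a TGF-beta-induced brake on the receptors, measured 9.14, 9.29 and 9.26 in intrakidney and 9.55, 9.52 and 9.53 in subcutaneous tumors, a difference of -0.30 (limma adjusted p = 0.242). Bmper and Chrdl2, secreted BMP-binding proteins, differed by 0.39 and 0.23 (limma adjusted p = 0.306 and 0.375), and Itgb5 and Tll1, an integrin subunit and a chordin-cleaving protease, by -0.28 and -0.31 (0.360 and 0.420). The ligand genes Gdf3 and Gdf11 differed by -0.39 and 0.20, the coreceptor genes Rgma and Eng by -0.40 and 0.14, and the corepressor gene Tgif1 by 0.15.

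**Figure D5:**
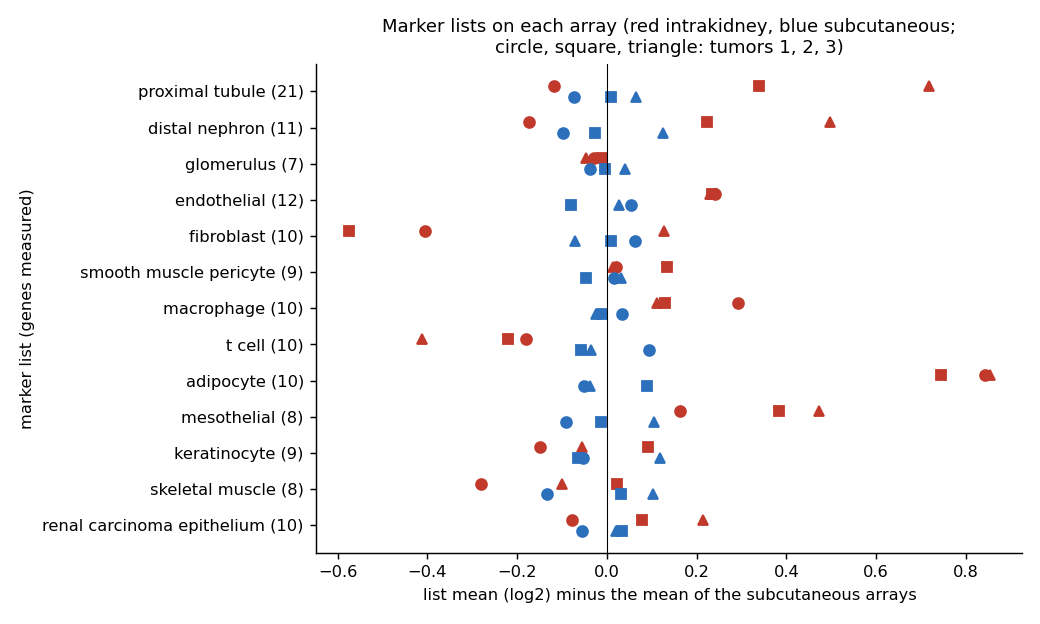
Mean log2 value of each marker list on each array minus its mean over the subcutaneous arrays (horizontal axis), by list with the number of genes measured (vertical axis). Endothelial, adipocyte, mesothelial and macrophage lists are higher and the T cell list lower in all intrakidney tumors, and the tubule lists are high in intrakidney tumors 2 and 3, with proximal tubule means of 6.82 and 7.19.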

How the data were processed

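The deposited values were log2 expression values; the submitters' processing notes name RMA and affy, and the scale follows from the deposited log2 values, which ran from 2.31 to 15.07. RMA compresses changes of dim genes, and its version, settings and genome build are not given in the sources used here. Of 35512 transcript clusters, 21789 were paired with exactly 1 gene by the platform annotation. For genes with several clusters the one with the highest mean over the 6 arrays was kept, which left 19938 genes. The fit used limma 3.58.1 under R 4.3.3 (a mean per group, eBayes, two-sided, Benjamini-Hochberg over all genes, threshold 0.05), checked on simulated data. The number of arrays limits the precision, and no batch was named.

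Genes with values in every array were those past the threshold, those whose groups do not overlap and that differ by at least 0.3, and up to 2 of each role with the smallest p; of each further pathway list, genes past the threshold and up to 2 more were named. The 44 genes and all lists were chosen with earlier results of these data known. Fstl1 was described after its values were seen, as were the remaining genes given with a difference or an interval only. Other settings were median centring, quantile normalization, an offset of 16, a filter on dim genes (mean under the 40th percentile), averaging clusters, testing every cluster, array weights, a robust prior with an intensity trend, an adjusted p of 0.01, a block for the replicate number and leaving out each array; leaving out intrakidney tumors 2 and 3, and the proximal tubule mean as a covariate, were added after seeing the data.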

Additional observations from a re-analysis of the deposited data

How the results depend on the processing

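Of 771 values of single named genes under 18 other settings, 677 kept their direction and their side of the threshold. Of the rest, 62 lost the call, 14 gained it and 18 changed direction. Most of the named genes never passed, and every lost call was of a gene that passed as deposited. Of the 18 settings, Mgp passed in 11, Grem1 in 7, Ltbp1 in 8 and Id1 in 6. Tnc passed in 12, Thbs2 in 11 and Postn in 9. Of the 43 pathway genes of the set, 1 higher and 2 lower passed as deposited. Testing every transcript cluster adjusts over more features and also fits the variances anew over them. The SE of Mgp was then 0.141, beside 0.132, and its unadjusted limma p 3.3e-05, beside 6.2e-06. This setting gave 0 higher and 0 lower, with 0 of all genes past the threshold. An adjusted p of 0.01 gave 0 higher and 0 lower, with 5 of all genes past it. Leaving out intrakidney tumors 2 and 3 also gave 0 higher and 0 lower, but leaves 1 intrakidney array, which is assumed to vary like the subcutaneous tumors. The proximal tubule covariate gave 1 higher (Mgp) and 0 lower, in a setting where 0.0602% of all genes passed. Array weights gave 2 higher (Mgp and Bmp6) and 3 lower (Inhbb, Grem1 and Ltbp1). With these weights 3.13% of all genes passed, beside 0.231% as deposited. Leaving out 1 array gave 0 to 1 higher and 0 to 1 lower. Few genes of any kind passed then. Of all 19938 genes, 21, 31 and 33 passed without intrakidney tumors 1, 2 and 3. Only 2, 3 and 4 passed without subcutaneous tumors 1, 2 and 3. The replicate number as a block gave 0 higher and 0 lower, with 0 of all genes past the threshold. The labels number the tumors and name no pairs. Deviations from the group means correlated at 0.37, -0.16 and 0.10 for numbers 1, 2 and 3, and not every tumor correlated best with its own number. With so few tumors these correlations cannot decide whether the numbers pair them. Differences near 0 changed sign: Tgfb1 was 0.00028 after quantile normalization, 0.0077 after median centring and 0.021 with the tubule covariate; Gdf10 was 0.0015 after quantile normalization and 0.039 with array weights, where Smad2 was -0.012. Smad7 was -0.0036 and Tgfbr3 -0.077 without intrakidney tumors 2 and 3, and -0.026 and -0.029 with the covariate. Without 1 array Tgfb1 ran from -0.057 to 0.043, Gdf10 from -0.091 to 0.071, Smad2 from -0.0066 to 0.095 and Smad7 from -0.055 to 0.077. The cause was not tested. The number of arrays and the compression of dim values limit what could be seen.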

Other observations

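2 genes of the wider pathway, chosen after their values were seen, were high in intrakidney tumor 3. Hamp, the hepcidin gene and a BMP target of the liver, measured 4.25, 4.18 and 6.02 in intrakidney tumors 1, 2 and 3 and 4.53, 4.43 and 4.33 in subcutaneous tumors 1, 2 and 3. Itgb6, an integrin subunit of epithelia that activates latent TGF-beta, measured 5.16, 5.54 and 6.12 in intrakidney and 5.02, 5.13 and 5.10 in subcutaneous tumors. All intrakidney tumors thus lay above every subcutaneous tumor for Itgb6, but the difference of 0.52 did not pass (limma adjusted p = 0.576).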
